A study of Homo sapiens with 12 samples.

Results

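Gene expression was compared between 2 transduced populations, B2 and B1, of the established Hodgkin lymphoma cell line U-H01, in the arrays that the labels call induced. Each population was measured at the time points D1 and D2, which gave 2 arrays for B2 and 2 for B1. These 4 arrays were chosen by their titles, of 12 arrays in all. The study used doxycycline-inducible short hairpin RNAs directed at RelB and cRel, with a pair of sequences for each, and measured gene expression on whole-transcript microarrays. The other 8 arrays were U-H01 B1 and B2 without induction (2 each) and HBL-1, an established line from a diffuse large B-cell lymphoma, whose population C had 2 uninduced and 2 induced arrays.

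All 12 arrays came from transduced cells, so every U-H01 array, induced or not, carried an inducible hairpin. The treatment label of the B1 arrays reads as a knock-down at D1 or D2, and that of the B2 arrays adds the term Seq2. The labels do not state which of the subunits the B1 or B2 hairpin targets, and they do not spell out the unit of D for U-H01. They name no non-targeting hairpin. Each population is 1 transduced pool, and nothing in the labels says that D1 and D2 were separate cultures. The p-values therefore reflect only how far these arrays scatter, and that scatter may be technical.

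RelB and cRel are subunits of NF-kB, a family of dimeric transcription factors that inhibitor proteins hold in the cytoplasm until receptor signalling releases them. RelB pairs mainly with the NFKB2 product in the alternative branch, and cRel pairs mainly with the NFKB1 product in the canonical branch. Hodgkin lymphoma cells are known for constitutive NF-kB activity, which drives survival genes, cytokines and surface receptors. A short hairpin RNA is processed into a small RNA that lowers the transcript it matches. Different hairpin sequences can differ in strength and in the unintended transcripts they touch, and that is why a second sequence is commonly run.

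The 4 arrays labelled induced were alike, with Pearson correlations from 0.992 to 0.994 over all genes in the 6 pairs. The B1 D1 and B1 D2 arrays correlated at 0.993, and the arrays of B1 and B2 taken at the same time point at 0.992 and 0.994. They stood apart from the uninduced U-H01 arrays: the 16 pairs that joined a labelled induced with an uninduced U-H01 array correlated at 0.893 to 0.910. The 16 pairs that joined a labelled induced U-H01 array with an HBL-1 array correlated at 0.904 to 0.917. Among type markers, TNFRSF8, the CD30 antigen of Hodgkin cells, was at log2 11.5 to 11.7 in the 4 arrays against group means of 6.72 and 7.06 in uninduced B1 and B2. CD38, a plasma cell and germinal-centre marker, was at 11.0 to 11.4 against 4.59 and 4.56. CD274, which encodes PD-L1, was at 3.96 to 4.27 against 10.3 and 9.47. The B-cell markers PAX5 and CD79A were high in the 4 arrays (11.7 to 11.9 and 10.7 to 11.3), and MS4A1, which encodes CD20, was low (4.37 to 4.62). Other markers of these types were mixed. The B-cell marker CD22, the plasma cell markers PRDM1 and XBP1 and the Hodgkin marker IL21R were above both uninduced means in all 4 arrays. Their lowest values were 9.66, 10.22, 11.28 and 9.601, against higher uninduced means of 6.18, 7.44, 10.05 and 9.02. CD79B, SDC1, CCL17 and FUT4 were not clearly raised. The B-cell marker CD79B was at most 6.45, against uninduced means of 6.11 and 6.54. The plasma cell marker SDC1 was at 6.21 to 6.58 against 6.78 and 6.85. Of the Hodgkin markers, CCL17 was at 6.42 to 6.72 against 6.51 and 6.68. FUT4 was below both uninduced means (6.72 and 6.98) in all 4 arrays. Whether the sets differ by treatment or by the cells they hold cannot be told apart from the labels, so uninduced values are set beside the B2 minus B1 difference and are not read as a baseline.

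B2 and B1 differed in 20 of 18417 genes (0.109%) in the arrays labelled induced, by limma's moderated test with Benjamini-Hochberg adjustment at 0.05. Of these, 5 were higher in B2 (0.0271% of genes) and 15 were lower (0.0814%). The lower genes were led by TRIM59, which encodes a TRIM-family ubiquitin ligase, and SLFN11, which encodes a nuclear protein that blocks stressed replication forks. The higher genes were led by PRICKLE1, a component of the planar cell polarity pathway. The transcripts of the NF-kB subunits did not pass the test, and of the NF-kB pathway lists only TNFRSF9 did. An unadjusted limma p under 0.05 was reached by 1537 genes, where about 921 of 18417 would reach it by chance alone. With 2 arrays a side, an exact permutation test of a single gene cannot give a two-sided p below 0.333, so each call rests on the spread that limma pooled over all genes and arrays.

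The promoters of the genes with the steadiest differences, and of the NF-kB target TNFRSF9, are shown because the compared hairpins were directed at NF-kB subunits. Each run is the 250 bases before the RefSeq transcription start on build GRCh38.p14, written 5′ to 3′ on the gene's strand, with NF-kB motif matches in capitals. The windows are chr3:160449787-160450036 (minus strand) for TRIM59, chr17:35373622-35373871 (minus) for SLFN11, chr12:42483616-42483865 (minus) for PRICKLE1, chr2:158968390-158968639 (plus) for TANC1 and chr1:7940840-7941089 (minus) for TNFRSF9.
TRIM59: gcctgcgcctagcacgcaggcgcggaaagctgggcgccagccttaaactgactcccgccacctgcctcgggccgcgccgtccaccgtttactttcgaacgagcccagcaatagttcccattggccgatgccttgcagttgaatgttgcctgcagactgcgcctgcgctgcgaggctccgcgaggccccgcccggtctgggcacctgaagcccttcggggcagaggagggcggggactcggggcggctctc
SLFN11: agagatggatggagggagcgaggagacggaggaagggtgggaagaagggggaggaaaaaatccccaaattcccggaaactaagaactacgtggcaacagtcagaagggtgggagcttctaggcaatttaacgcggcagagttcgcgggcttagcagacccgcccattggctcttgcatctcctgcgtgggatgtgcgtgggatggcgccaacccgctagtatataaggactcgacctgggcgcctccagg
PRICKLE1: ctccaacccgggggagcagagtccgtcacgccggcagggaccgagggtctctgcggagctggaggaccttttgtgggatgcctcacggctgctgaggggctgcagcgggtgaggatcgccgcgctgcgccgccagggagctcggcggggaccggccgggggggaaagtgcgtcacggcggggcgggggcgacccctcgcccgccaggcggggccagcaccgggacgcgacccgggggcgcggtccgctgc
TANC1: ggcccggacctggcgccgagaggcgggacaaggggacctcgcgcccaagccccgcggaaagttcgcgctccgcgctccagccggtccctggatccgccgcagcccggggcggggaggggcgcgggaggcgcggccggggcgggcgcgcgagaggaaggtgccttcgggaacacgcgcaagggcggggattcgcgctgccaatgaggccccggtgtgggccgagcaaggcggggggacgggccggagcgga
TNFRSF9: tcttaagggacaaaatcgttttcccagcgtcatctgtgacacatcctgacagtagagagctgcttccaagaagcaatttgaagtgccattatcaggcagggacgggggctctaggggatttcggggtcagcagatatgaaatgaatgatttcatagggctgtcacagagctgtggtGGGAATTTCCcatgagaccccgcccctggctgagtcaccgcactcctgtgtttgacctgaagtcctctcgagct
The motif searched was GGG, any 2 bases and then TTTCC, on both strands, from 250 bases before to 50 after the start. It occurred in 671 of 35116 RefSeq promoters of that length (1.91%) and in promoters of 1 of the 12 called genes that the table holds. That gene was TNFRSF9, whose match GGGAATTTCC begins 74 bases before the start site. The interferon response motif (GAAA, any 2 bases and GAAA again), searched the same way, occurred in 1255 promoters (3.57%) and in none of those of the 12 genes. These percentages are shares of promoters, while the called genes are counted as genes. KIAA1217, PLAC8, RHOU and XAF1 each have several promoters, so the shares and the counts are not like for like. The median G and C content was 61.2% in the promoters of the called genes and 58.7% over all promoters.

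The NF-kB subunit transcripts are the possible targets of the hairpins. RELB was at log2 7.22 in B1 D1, 7.26 in B1 D2, 7.39 in B2 D1 and 7.14 in B2 D2. The groups overlapped, and the difference was 0.03 ± 0.12 (SE of the fit, 95% interval -0.24 to 0.29, limma adjusted p = 0.978). REL, which encodes cRel, was at 10.14 and 10.30 in B1 and at 9.95 and 10.26 in B2. These groups overlapped as well, with a difference of -0.12 ± 0.12 (interval -0.38 to 0.15, adjusted p = 0.856). The uninduced arrays had RELB at 7.23 and 7.38 in B1 and at 7.54 and 7.45 in B2, and REL at 10.05 and 9.98 in B1 and at 9.92 and 9.88 in B2. HBL-1 had RELB at 7.67 in both uninduced arrays and at 7.57 and 7.40 in the induced ones, and REL at 9.70 and 9.78 uninduced against 9.13 and 9.37 induced. The 2 populations thus had no detectable difference in either transcript, within those intervals. RELA (-0.06, adjusted p = 0.927), NFKB1 (0.04, adjusted p = 0.962) and NFKB2 (-0.18, adjusted p = 0.750) also did not pass.

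TRIM59 had the largest difference in either direction. Its level was 5.50 in B1 D1 and 5.23 in B1 D2, and 3.53 in B2 D1 and 3.33 in B2 D2. Both B2 arrays were far below both B1 arrays, by 1.96 at D1 and 1.90 at D2. The fitted difference was -1.93 ± 0.10 (3.82-fold lower, limma adjusted p = 8.05e-06, 95% interval -2.16 to -1.71). The B2 mean of 3.43 lay below the lower quartile of every array (4.18 to 4.28), near the background of the array. SLFN11, known to sensitise cells to DNA-damaging drugs, was at 8.13 and 7.82 in B1 and at 6.25 and 6.03 in B2. Here too the groups were widely separated at both time points, and the difference was -1.84 ± 0.14 (3.57-fold lower, adjusted p = 0.000215). TANC1, a scaffold protein with ankyrin repeats, was at 5.42 and 5.49 in B1 and at 4.33 in both B2 arrays, a difference of -1.13 ± 0.11 (adjusted p = 0.00167). PRICKLE1 went the other way. It was at 6.11 and 6.07 in B1 and at 7.52 and 7.54 in B2, which is 1.44 ± 0.13 higher (2.71-fold, adjusted p = 0.000796).

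**Figure D1:**
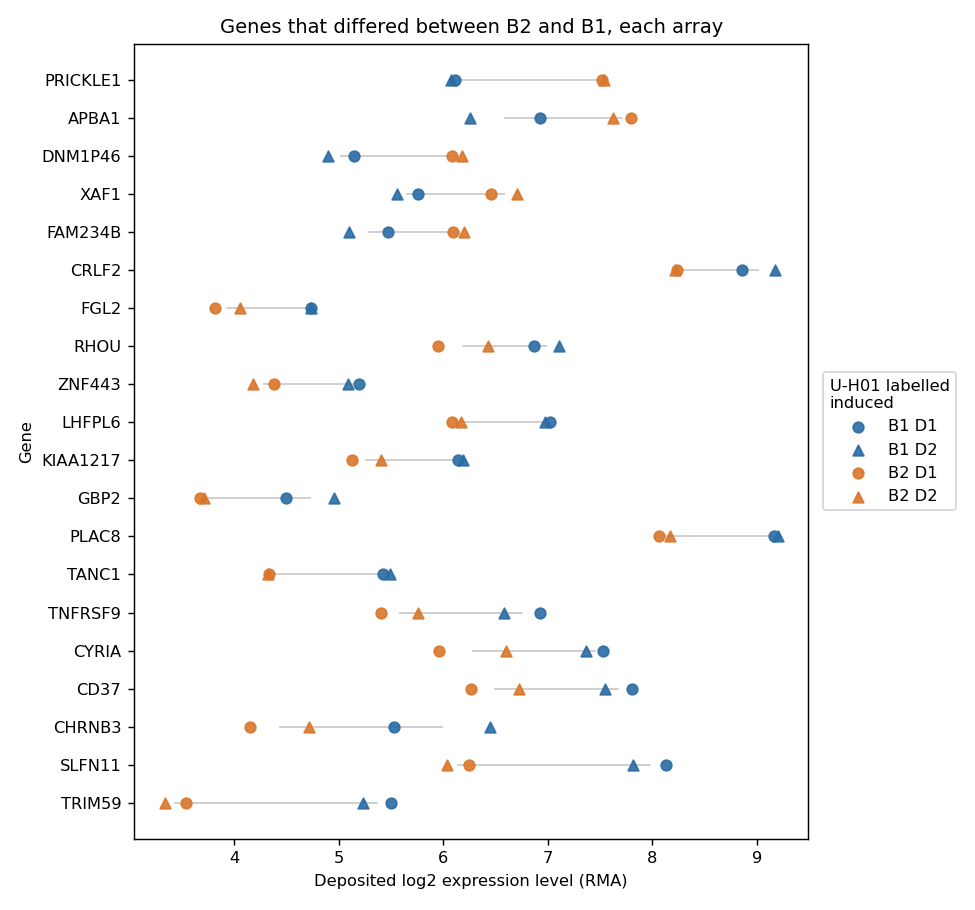
Deposited log2 expression level (x axis) of the 20 genes that differed between B2 and B1 (y axis) in each of the 4 arrays labelled induced. Blue marks B1, orange B2, circles D1 and triangles D2, and the grey line joins the group means. In none of the 20 do the B2 and B1 arrays overlap, and TRIM59, at 3.33 to 3.53 in B2 and 5.23 to 5.50 in B1, has the widest gap.

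The lower genes included receptors and other proteins of immune cells. CD37, a tetraspanin of mature B cells, was at 7.81 and 7.55 in B1 and at 6.26 and 6.73 in B2, a difference of -1.18 ± 0.15 (adjusted p = 0.0133). TNFRSF9, the costimulatory receptor 4-1BB and a known NF-kB target, was at 6.92 and 6.58 in B1 and at 5.40 and 5.76 in B2 (-1.17 ± 0.15, adjusted p = 0.0144). For both genes B2 D1 was the lowest array, and the gap was wider at D1 (-1.54 for CD37, -1.52 for TNFRSF9) than at D2 (-0.82 for each). CRLF2, a chain of the receptor for thymic stromal lymphopoietin, was at 8.86 and 9.17 in B1 and at 8.24 and 8.22 in B2 (-0.79 ± 0.12, adjusted p = 0.0246). FGL2, a fibrinogen-like protein with immunoregulatory roles, was at 4.74 and 4.73 in B1 and at 3.81 and 4.05 in B2 (-0.80 ± 0.12, adjusted p = 0.0202). Their groups were separated at both time points, CRLF2 at a high level and FGL2 near the low end of the arrays. GBP2, an interferon-inducible GTPase, was at 4.49 and 4.95 in B1 and at 3.67 and 3.71 in B2 (-1.03 ± 0.14, adjusted p = 0.0162). A second GBP2 probe set gave a difference of -0.91 (adjusted p = 0.0145), so both probe sets of that gene passed. The B2 means of GBP2 (3.69) and FGL2 (3.93), like that of TRIM59, lay below the lower quartile of every array.

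RHOU was at 6.86 and 7.11 in B1 and at 5.94 and 6.42 in B2 (-0.80 ± 0.13, adjusted p = 0.0481). CYRIA was at 7.53 and 7.37 in B1 and at 5.96 and 6.60 in B2 (-1.17 ± 0.18, adjusted p = 0.0382). Both had their lowest value in B2 D1. CHRNB3, a nicotinic acetylcholine receptor subunit, was at 5.53 and 6.45 in B1 and at 4.15 and 4.71 in B2 (-1.56 ± 0.21, adjusted p = 0.0144), and its B1 arrays spread more than those of the other called genes. PLAC8, a small cysteine-rich protein, was at 9.17 and 9.20 in B1 and at 8.06 and 8.17 in B2 (-1.07 ± 0.13, adjusted p = 0.0107), the highest B1 level among the 20 genes. LHFPL6 (-0.87), a tetraspan membrane protein, ZNF443 (-0.86), a zinc finger protein, and KIAA1217 (-0.91) had adjusted p-values of 0.0144, 0.0241 and 0.0202.

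Of the 5 genes higher in B2, APBA1, an adaptor that binds the amyloid precursor protein, was at 6.92 and 6.25 in B1 and at 7.80 and 7.63 in B2 (1.12 ± 0.16, adjusted p = 0.0179). XAF1, an interferon-inducible protein that antagonises the apoptosis inhibitor XIAP, was at 5.75 and 5.56 in B1 and at 6.46 and 6.70 in B2 (0.92 ± 0.12, adjusted p = 0.0144). FAM234B was at 5.47 and 5.10 in B1 and at 6.09 and 6.20 in B2 (0.86 ± 0.13, adjusted p = 0.0241). In these 3 genes the gap was wider at D2, where B1 was lower. DNM1P46, a dynamin 1 pseudogene, was at 5.15 and 4.89 in B1 and at 6.08 and 6.18 in B2 (1.11 ± 0.14, adjusted p = 0.0144). Its other 2 probe sets gave 0.14 and -0.14 (adjusted p = 0.914 and 0.846), and with the probe sets of a gene averaged its adjusted p was 0.334. The difference rests on 1 probe set, and probes of a pseudogene can share sequence with related copies.

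**Figure D2:**
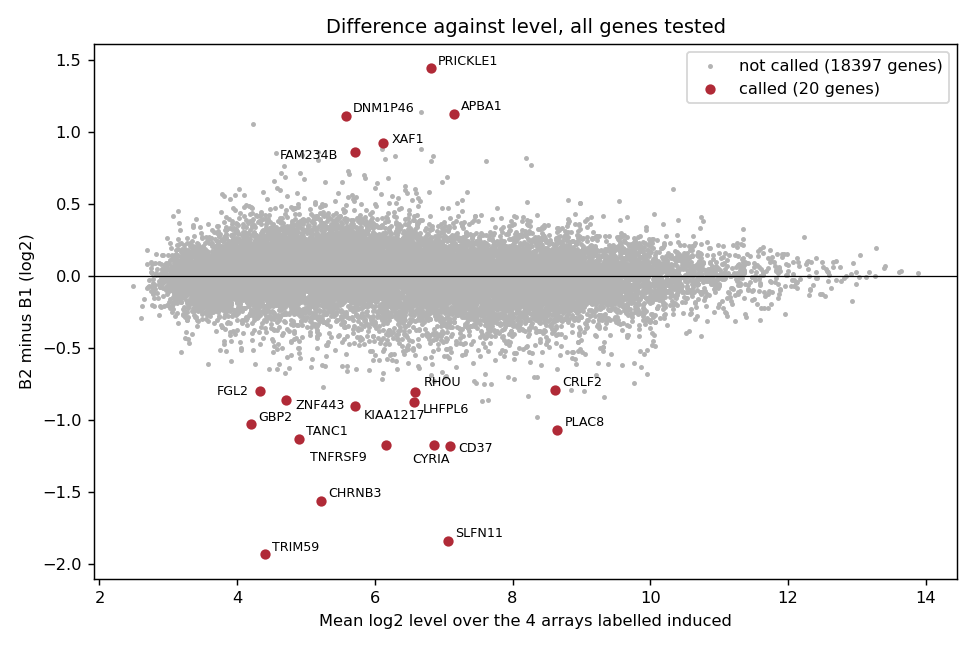
B2 minus B1 difference in log2 units (y axis) against the mean log2 level over the 4 arrays labelled induced (x axis), 1 point per gene. The 20 called genes (red, named) stand out from the 18397 others (grey), whose scatter narrows above log2 10, and they lie between log2 4 and 9.

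The differences were small for most genes. The median absolute difference between B2 and B1 was 0.10 log2 units and the 95th percentile was 0.34, while the median absolute difference between D2 and D1 was 0.12. A difference over 2-fold was seen in 14 genes (0.076%), 5 higher (0.0271%) and 9 lower (0.0489%), and 12 of the 14 were called. The other 2 were RGS13 (1.05, adjusted p = 0.0926) and SIT1 (1.13, adjusted p = 0.142). Non-overlap alone says little with 2 arrays a side: B2 and B1 did not overlap in 5521 genes (30.0%), 2787 higher (15.1%) and 2734 lower (14.8%). All 20 called genes were among them. In 11 of the 20 the lower group mean was below the array median (5.79 to 5.88), and in 5 both means were.

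Of the 20 genes, 4 were called under every alternative in which they were tested, TRIM59, SLFN11, PRICKLE1 and TANC1, and all 20 kept their direction wherever they were tested. The kept direction adds little, because the B2 and B1 arrays of all 20 did not overlap to begin with. The filter on low levels left 9 of the 20 to test. Leaving out 1 array at a time left 11 to 58 called genes. Without B1 D1, 21 genes were called and 10 of the 20 remained, with CD37, TNFRSF9, CYRIA and PLAC8 among those lost. Without B1 D2, 13 were called and 7 of the 20 remained, with APBA1, XAF1, GBP2 and CHRNB3 among those lost. Without B2 D1, 11 were called and only XAF1 remained beside TRIM59, SLFN11, PRICKLE1 and TANC1. Without B2 D2, 58 were called, 53 of them lower, and 14 of the 20 remained. With the time point as a block within each line and label, 6 genes passed, TRIM59, SLFN11, PRICKLE1, TANC1, CHRNB3 and PLAC8. The other 14, TNFRSF9, CD37, GBP2 and XAF1 among them, then had adjusted p-values of 0.101 to 0.198. With the 4 labelled induced arrays fitted alone 35 genes passed. Without the time-point block 18 of the 20 passed, and RHOU and ZNF443 did not.

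At each time point B2 minus B1 sets a single B2 array against a single B1 array. Whether the 2 time points differ in this was not tested, and it cannot be told apart from the scatter of single arrays. At D1, 13 genes were over 2-fold higher in B2 and 44 lower, and at D2, 25 were higher and 9 lower. A difference over 2-fold in the same direction at both time points was found in 6 genes, CHRNB3, PLAC8, PRICKLE1, SLFN11, TANC1 and TRIM59, all of them called. RGS1 (-1.16 at D1, 1.22 at D2) and RTL8C (-1.07 and 1.02) changed sign. Between D2 and D1 no gene passed limma's adjusted test in either direction (0%), while 1924 had an unadjusted p under 0.05. About 921 would by chance alone, and this separate fit had 10 terms and only 2 residual degrees of freedom.

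Among genes that were low in B2 at D1 alone, 4 are given here, chosen after their values were seen. DDIT4, which restrains mTORC1 under stress, was at 9.51 and 9.99 in B1 and at 7.63 in B2 D1 but 10.2 in B2 D2. HILPDA, a lipid droplet protein induced by hypoxia, was at 9.26 and 9.19 in B1 and at 7.62 and 9.82 in B2. PFKFB4, a regulator of glycolysis, was at 8.46 and 8.87 in B1 and at 6.84 and 9.08 in B2. In all of them B2 D1 was low while B2 D2 was above both B1 arrays. At D2 B2 exceeded B1 by 0.20 for DDIT4, 0.63 for HILPDA and 0.21 for PFKFB4. INSIG2, which retains the sterol sensor in the endoplasmic reticulum, followed the same order, at 9.52 and 9.59 in B1 and at 8.04 and 9.70 in B2. None of the 4 was called over both time points, all 4 were among the 58 genes called without B2 D2, and the cause of the low array was not tested.

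**Figure D3:**
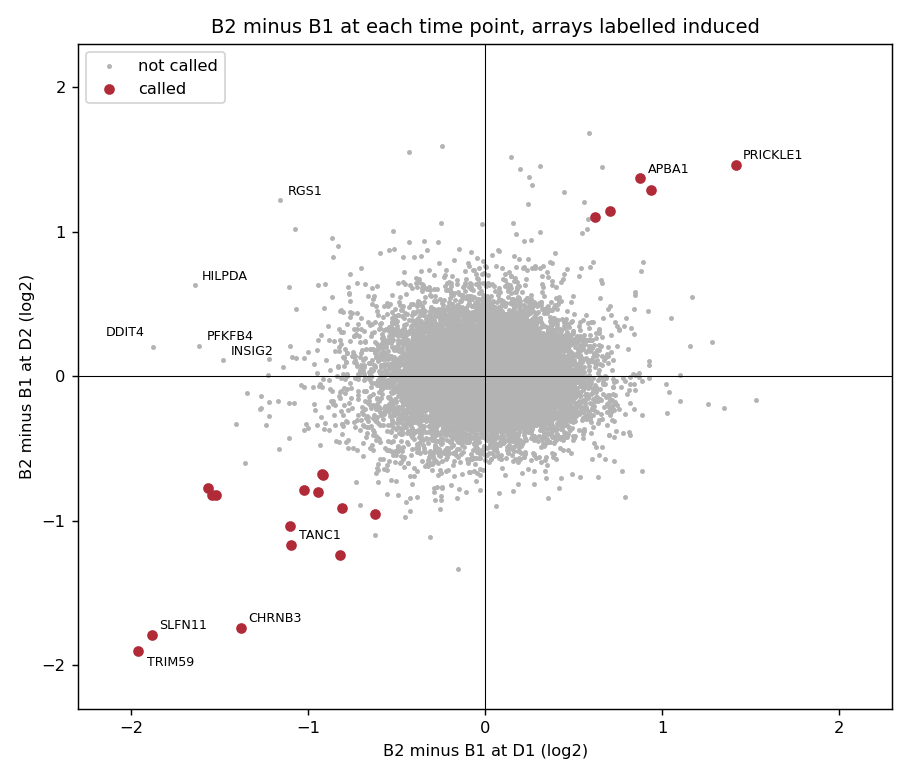
B2 minus B1 in log2 units at D1 (x axis) and at D2 (y axis) in the arrays labelled induced, 1 point per gene, called genes in red. TRIM59, SLFN11 and CHRNB3 lie near the diagonal in the lower left and PRICKLE1 in the upper right, while DDIT4, HILPDA, PFKFB4 and INSIG2 lie to the left and above 0 on the vertical axis.

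The same array stood out across whole lists. B2 D1 was the lowest of the 4 arrays in 25 of 28 glycolysis and hypoxia genes (89.3%), 9 of 10 class II antigen presentation genes (90.0%) and 14 of 17 cholesterol synthesis genes (82.4%), against 4633 of all 18417 genes (25.2%). The median B2 minus B1 difference of the glycolysis and hypoxia list was -0.36 at D1 and 0.12 at D2, and that of the cholesterol list -0.52 at D1 and -0.03 at D2. Another array led further lists. B1 D2 was lowest in 22 of 23 oxidative phosphorylation genes and 14 of 23 mitosis genes, against 4725 of all 18417 genes. Over both time points no member of any list in this paragraph was called.

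The lists of the NF-kB pathway were described by role, each against a median difference of 0.01 over all genes and the 0.109% called. Of 19 measured genes of the activating pathway none was called, with a median of -0.04, and the smallest p-values belonged to the adaptors TRAF5 (-0.34, adjusted p = 0.506) and TRAF1 (-0.39, adjusted p = 0.637) and the kinase IKBKB (-0.24, adjusted p = 0.593). Of 18 inhibitors and brakes none was called, and the median was -0.18. NFKBIZ, an inducible nuclear IkB protein, was at 9.61 and 9.80 in B1 and at 9.15 and 9.18 in B2 (-0.54, adjusted p = 0.154). CYLD, a deubiquitinase that damps the pathway, was at 6.86 and 6.88 in B1 and at 6.52 and 6.25 in B2 (-0.48, adjusted p = 0.225). In the inhibitor list 8 genes had both B2 arrays below both B1 arrays and 1 had both above, beside the 14.8% and 15.1% of all genes. B2 D1 was the lowest array in 9 of the 18, and the list median was -0.33 at D1 and -0.11 at D2.

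Of 27 cytokine and chemokine targets none was called. CXCL10, a chemokine for activated T cells, was at 8.10 and 7.48 in B1 and at 8.29 and 8.91 in B2 (0.81, adjusted p = 0.267), and LTA, which encodes lymphotoxin alpha, had 0.38 (adjusted p = 0.536). Of 25 target receptors and surface genes TNFRSF9 alone was called, lower in B2. The next smallest p-values were those of TNFSF10, the death ligand TRAIL (-0.64, adjusted p = 0.184), and PDCD1LG2, which encodes PD-L2 (-0.39, adjusted p = 0.440). Of 22 apoptosis regulators none was called, and CFLAR, an inhibitor of caspase-8 activation, had -0.36 (adjusted p = 0.393).

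Of 38 interferon-stimulated genes measured, XAF1 was called higher and none was called lower, and the median was 0.02. In this list 13 genes had both B2 arrays above both B1 arrays and 6 had both below, beside 15.1% and 14.8% of all genes. GBP2, called lower, is also interferon-inducible but was not on the list. IFI6, a mitochondrial survival protein, was at 7.07 and 7.03 in B1 and at 7.45 and 7.81 in B2 (0.58, adjusted p = 0.217), while PARP9 had -0.45 (adjusted p = 0.262). In the Schlafen family SLFN11 was the 1 gene of 6 called. The genes next to SLFN11, SLFN5 and SLFN12, had 0.10 and -0.13 (limma adjusted p = 0.886 and 0.797). SLFN13, 2 places from SLFN11 in gene order, was at 7.11 and 6.77 in B1 and at 7.48 and 7.40 in B2. It was higher in both B2 arrays, by 0.50 with an adjusted p of 0.194. SLFN12L had 0.33 (adjusted p = 0.418). Of 14 genes of the RNA interference machinery, which processes hairpins, none was called, and AGO1 (0.32), AGO4 (-0.42) and DICER1 (-0.21) had the smallest p-values, with adjusted values of 0.429 to 0.646.

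The lists with the lowest medians were class II antigen presentation (-0.34, 10 genes), cholesterol synthesis (-0.27, 17 genes) and the butyrophilins (-0.25, 9 genes), and none of their members was called. HLA-DMA and HLA-DMB, which load peptide onto class II molecules, had -0.53 and -0.60 (adjusted p = 0.262 and 0.278). HLA-DMB was at 9.95 and 10.19 in B1 and at 9.14 and 9.79 in B2. MSMO1, a sterol oxidase, was at 8.22 and 7.77 in B1 and at 6.81 and 7.44 in B2 (-0.87, adjusted p = 0.196), and HMGCS1, which makes the precursor of mevalonate, at 10.33 and 9.95 in B1 and at 9.07 and 9.73 in B2 (-0.74, adjusted p = 0.266). In each of these 3 genes B2 D1 was the lowest array. Without B2 D1 the list medians were -0.10 for class II genes, -0.04 for cholesterol synthesis and -0.09 for the butyrophilins, in which B2 D1 was lowest in 6 of 9. Without B1 D1 the butyrophilin median was -0.03. BTN3A3, a butyrophilin with a role in gamma-delta T-cell recognition, had -0.55 (adjusted p = 0.356), and BTNL2 had 0.44 (adjusted p = 0.341).

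Lists of cell identity had 1 called gene. Of 26 B-cell genes CD37 alone was called, lower, with a list median of -0.04. CR2 (-0.75, adjusted p = 0.267) and FCER2 (-0.67, adjusted p = 0.273), both receptors of mature B cells, did not pass. Of 27 Hodgkin Reed-Sternberg genes none was called, and BATF3, a transcription factor of these cells, was at 6.38 and 6.32 in B1 and at 6.80 and 6.98 in B2 (0.54, adjusted p = 0.186). The mean level of the T and NK cell markers was 5.22 to 5.41 over the 4 arrays (18 genes), that of the myeloid markers 4.66 to 4.90 (14 genes) and that of the stromal, endothelial and epithelial markers 5.66 to 5.77 (17 genes). None of these markers was called, and CD3D (4.30 to 4.64) and LYZ (3.04 to 3.59) were low in all 4. Some other markers of these types were not low. CD7 was at 7.62 to 8.11, NKG7 at 6.67 to 7.54, CDH1 at 7.67 to 8.23 and VIM at 9.19 to 9.87. Fewer cells of a type and less RNA per cell cannot be told apart in such bulk samples. The p53, cell cycle, mitosis, histone, ribosomal protein, stress response and aldo-keto reductase lists also had no called member, with AKR1C3 at 0.84 (adjusted p = 0.317) and the histone gene H2BC12 at 0.65 (adjusted p = 0.270).

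**Figure D4:**
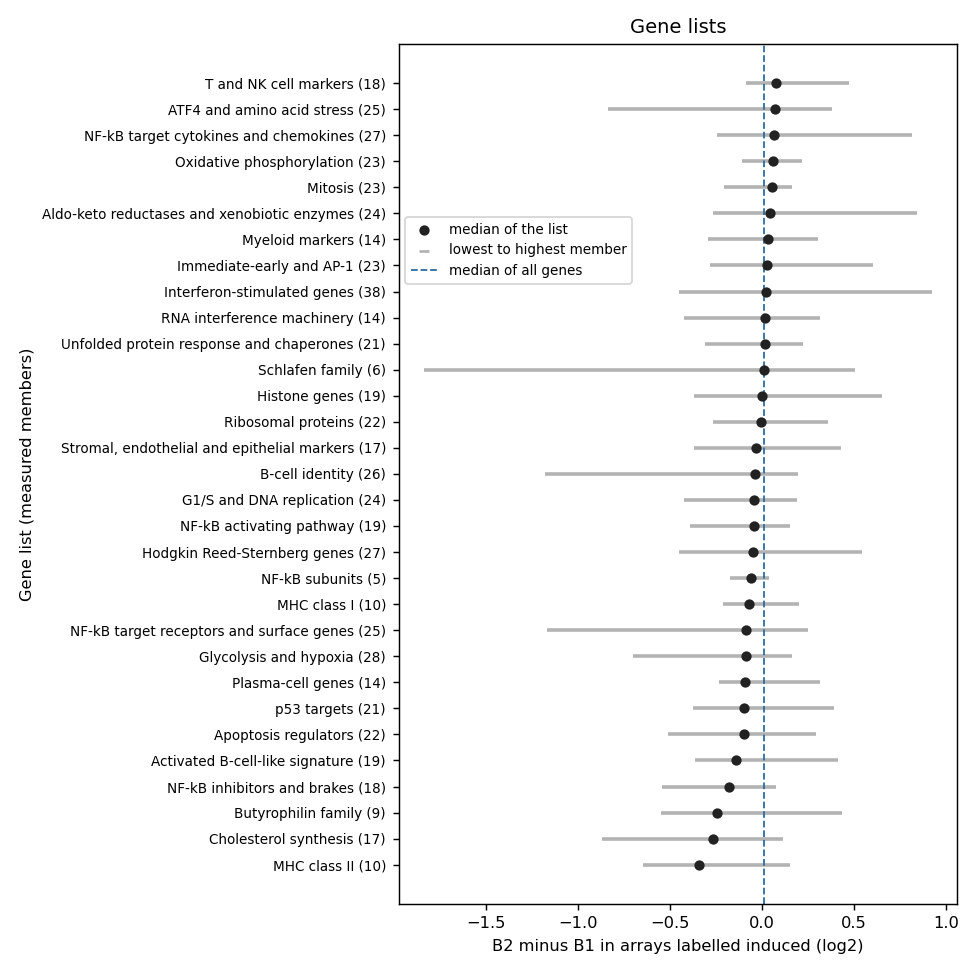
B2 minus B1 difference in log2 units (x axis) for the 31 gene lists (y axis, measured members in parentheses). Dots are list medians, grey bars run from the lowest to the highest member, and the dashed line is the median of all genes (0.01). Class II antigen presentation has the lowest median (-0.34), and the long bars of the Schlafen, B-cell and NF-kB receptor lists end at SLFN11, CD37 and TNFRSF9.

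In the uninduced U-H01 arrays, 608 genes (3.30%) differed between B2 and B1 by the same fit, 153 higher (0.831%) and 455 lower (2.47%), and none of the 20 genes was among them. At a share of 3.30% over all genes, no call among 20 genes says little. Of the 20, 9 had the same sign there, which is not set against a count over all genes. The induced difference itself was different from the uninduced one in 108 genes (0.586%), more positive in 66 (0.358%) and more negative in 42 (0.228%). Of the 108, 14 were among the 20. That overlap is not independent support, because the 20 were chosen by their induced difference, a term of the contrast. TRIM59 showed a difference of 0.01 without induction, where its group means were 6.57 and 6.59. SLFN11 showed 0.29, from 6.22 in B1 to 6.50 in B2, and TANC1 showed 0.03 at a level near 4.3. PRICKLE1 showed 0.40 in the same direction as with induction. APBA1 and DNM1P46 were far higher without induction (10.8 and 10.4 in B1) and there had the opposite sign, -0.38 and -0.50. TNFRSF9 (-0.60), CD37 (-0.49), CRLF2 (-0.34) and ZNF443 (-0.33) were lower in uninduced B2 as well without passing there, and for these 4 the induced difference was not shown to differ from the uninduced one (adjusted p = 0.194 to 0.323). Since the labelled induced and uninduced arrays stand far apart as a whole, what this second difference reflects cannot be told apart from the cells measured.

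**Figure D5:**
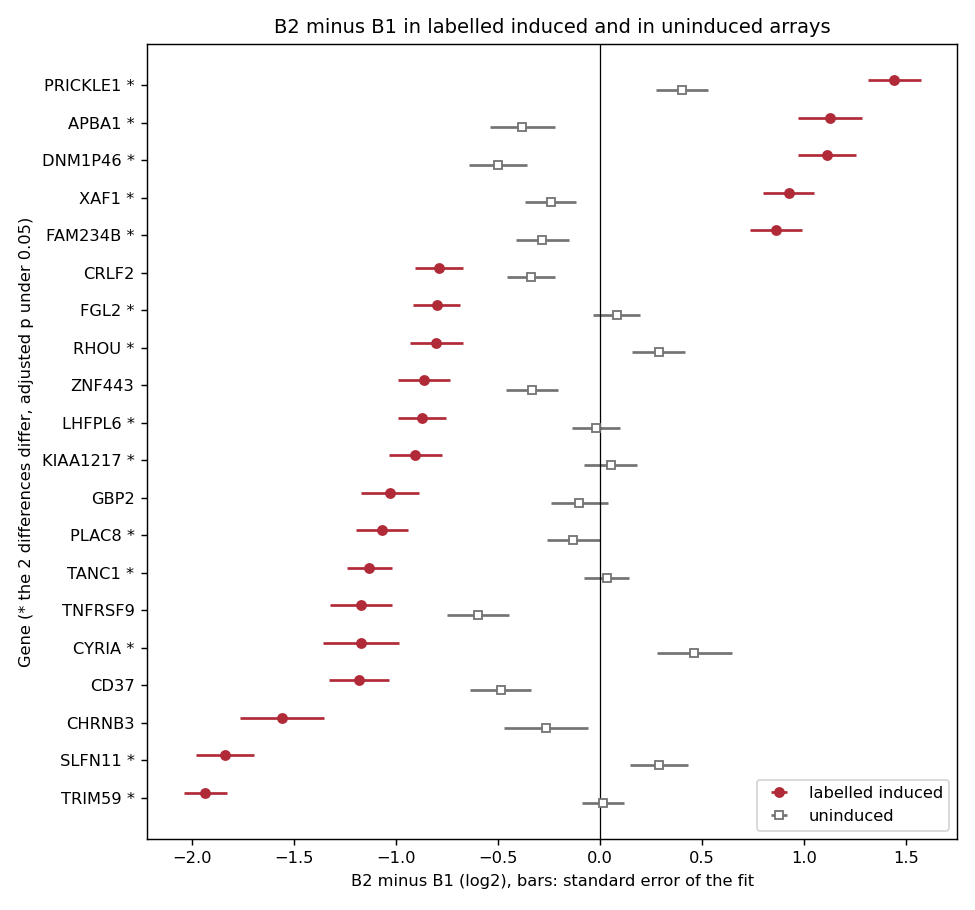
B2 minus B1 in log2 units (x axis) for the 20 called genes (y axis), with labelled induced arrays in red and uninduced arrays as open squares; bars are the standard error of the fit. Stars mark the 14 genes whose 2 differences differed from each other at an adjusted p under 0.05, TRIM59 (-1.93 against 0.01) and SLFN11 (-1.84 against 0.29) most widely.

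The genes that most separate the labelled induced from the uninduced arrays were also read for B2 against B1. The 48 genes over 5 log2 units higher in uninduced U-H01 had a median B2 minus B1 difference of 0.01 in the arrays labelled induced, 26 positive and 22 negative, and none was called. The 23 genes over 5 log2 units lower there had a median of -0.18, 4 positive and 19 negative, and none was called. The 40 genes that much higher in HBL-1 were split into 20 positive and 20 negative. Over all genes the median was 0.01, with 9811 positive and 8606 negative, and 0.109% were called. At that share, no call among so few genes says little.

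The 20 genes were scattered over the genome, with no chromosome holding more than the 3 of chromosome 1, and the chromosome medians ran from -0.01 to 0.04. Of the 80 neighbours examined, 2 on each side of each called gene, none was called, 49 had the sign of the called gene, and their median was -0.01. The largest neighbour difference was that of the pseudogene DUSP5P1 beside RHOU, at -0.98 (adjusted p = 0.292), and DUSP5P1 was among the 35 genes called when the 4 labelled induced arrays were fitted alone. CHRNA6, the receptor subunit gene next to CHRNB3, had -0.53 (adjusted p = 0.387), and IL3RA, close to CRLF2, had -0.52 (adjusted p = 0.423). GBP3 and GBP7, next to GBP2, had -0.32 and -0.04. GBP4, just beyond GBP7, had -0.27, and none of these GBP genes passed. TRIM59 lies beside MIR15B (-0.29) and MIR16-2 (-0.18), whose adjusted p-values were 0.575 and 0.689.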

How the data were processed

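The authors deposited 1 table of log2 expression values for 33297 probe sets on 12 arrays; RMA and Partek are named per the submitters' processing notes, with versions not given in the sources used here. Values ran from 2.07 to 14.3, and array medians from 5.79 to 5.88. Arrays have no read depth, and their number limits the precision. GEO's platform annotation gave 1 gene symbol to 19460 probe sets, several to 1754 and none to 12083, and the latter groups were not used; 19429 Entrez numbers matched the RefSeq table of GRCh38.p14. A gene with several probe sets (769 genes) was represented by the one with the highest mean, which left 18417 genes.

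limma 3.58.1 in R 4.3.3 fitted 6 group means and the time point within each line to all 12 arrays (8 terms, 4 residual degrees of freedom, 11.8 with the prior). P-values were two-sided and adjusted by Benjamini-Hochberg over the 19460 probe sets, and a gene was called at an adjusted p under 0.05. A difference is B2 minus B1 in log2 units, and errors are standard errors of the fit. The test was checked on simulated data. Figures were drawn with matplotlib 3.10.9 in Python 3.11.15. The time point, shared by number in the labels, is the block: deviations of same-numbered arrays correlated at 0.10 between B1 and B2 labelled induced and 0.03 uninduced.

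Genes named were the called genes without overlap (at most 15 in each direction), the 5 NF-kB subunits and up to 3 members with the smallest p in each list; others were chosen after their values were seen. The comparison and the 31 lists were chosen with earlier results of these data known, so lists are given by counts and medians without a test. Alternatives changed the block, the arrays fitted, the normalization, the level filter, the probe sets and the limma options, and left out each array in turn. RelA knock-down arrays are not analysed here.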

Additional observations from a re-analysis of the deposited data

Results flagged for a closer look

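In 14 of the 20 genes the B2 minus B1 difference in the arrays labelled induced was itself different from that in the uninduced arrays, by limma's contrast of the 2 differences with Benjamini-Hochberg adjustment over all probe sets. The 20 genes were chosen by their induced difference, which is a term of this contrast. The 14 are therefore not independent support for those calls. The gap was -2.12 log2 units for SLFN11 (adjusted p = 0.00129) and -1.95 for TRIM59 (adjusted p = 0.000346), whose B2 level with the induced label was near the background of the array. Both were lower in B2 at both time points with the induced label, and neither was lower in B2 without it.

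Among the other lower genes the gap was -1.63 for CYRIA (adjusted p = 0.0218), -1.16 for TANC1 (0.0122), -1.09 for RHOU (0.0255) and -0.96 for KIAA1217 (0.0443). It was -0.94 for PLAC8 (0.0454), -0.88 for FGL2 (0.0398) and -0.85 for LHFPL6 (0.0451). Among the higher genes it was 1.61 for DNM1P46 (0.0105), 1.51 for APBA1 (0.0158), 1.17 for XAF1 (0.0159), 1.14 for FAM234B (0.0202) and 1.04 for PRICKLE1 (0.0321). Of these, PRICKLE1 alone had the same sign in both sets with B2 higher, and APBA1, DNM1P46, XAF1 and FAM234B were lower in uninduced B2. The labelled induced and uninduced arrays differ across the whole profile, and that difference cannot be told apart from the label.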

How the results depend on the processing

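All 20 genes kept their direction under the alternatives that tested them (15 for 9 genes, 14 for the 11 that the level filter removed), and 4 (TRIM59, SLFN11, PRICKLE1 and TANC1) kept their call in every one in which they were tested. The kept direction adds little, because the B2 and B1 arrays of all 20 did not overlap to begin with. The counts of called genes in the labelled induced arrays, the uninduced arrays and the difference between them were 20, 608 and 108. They became 6, 216 and 7 with the time point as a block within line and label, 8, 348 and 36 with the 8 U-H01 arrays alone, and 4, 114 and 2 with all probe sets tested as separate items. The 4 labelled induced arrays alone gave 35 calls, and the level filter gave 9. The trend and robust options gave 927 uninduced calls and 212 for the difference. Leaving out each array in turn gave 11 to 58, 707 to 784 and 55 to 129. No replicate block gave 18, 624 and 101, and RHOU and ZNF443 lost their call (adjusted p = 0.0810 and 0.332). Other scalings moved the median of all genes to between -0.01 and 0.01. The cause of these changes was not tested. The limit is the number of arrays, with 2 a side, 4 residual degrees of freedom and a lower group mean below the array median in 11 of the 20 genes.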
